A study of Saccharomyces cerevisiae with 13 samples.

Results

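The response of wild-type budding yeast to caffeine was measured by comparing 2 libraries of cells treated with 50 mM caffeine for 1 h with 2 libraries of untreated cells, which are 4 of the 13 libraries of the series. The comparison was chosen by the labels alone, and its features are all 6759 genes with enough counts to be tested. All 4 libraries came from BY4741, a *MAT***a** haploid laboratory strain of *Saccharomyces cerevisiae* that the study describes as carrying *his3*, *leu2*, *lys2* and *ura3* alleles, and none carried a plasmid. One field of caffeine replicate 2 reads 51 mM, whereas its title reads 50 mM. The labels name rich medium (YEPD) or minimal SD medium without saying which these cultures had, and they do not say whether the 2 libraries of a group came from separate cultures, so p-values measure only the spread between libraries. The other libraries of the series were 3 of wild type with empty vector, 3 with *YAP1* overexpressed from a plasmid and 3 of a *yap1* deletion with empty vector. They were used only for the comparison of Yap1 targets and in a fit of all 13 libraries. Reads were QuantSeq 3′ tags counted per gene. Counts of a gene are given as CPM, the count relative to the normalized size of its library, and levels are not corrected for gene length. A gene was called higher or lower when its Benjamini-Hochberg adjusted p from edgeR's quasi-likelihood test was under 0.05, and only such genes are said below to have risen or fallen.

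Caffeine is a methylxanthine, a purine analog. In budding yeast it inhibits TORC1, the kinase complex that couples nitrogen supply to growth, and in animal cells it is known as an inhibitor of cyclic AMP phosphodiesterases and checkpoint kinases. Active TORC1 keeps ribosome production on and holds back nitrogen scavenging, autophagy and the stress program of the transcription factors Msn2 and Msn4. Genes of these and of other pathways were therefore grouped in 40 lists that held 1499 rows of the count tables, and each list was described by its counts of calls and its median log2 fold change. These lists were chosen with earlier results of these data known.

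The 4 libraries held 15508616 to 17387215 counts. Rows of ribosomal RNA took 18.5% and 14.7% of counts without caffeine and 27.4% and 22.7% with it. With these rows and ribosomal protein genes left out of the scaling, 1433 genes were higher and 1701 lower, against 1501 and 1593 otherwise. Whether this difference in ribosomal RNA had another part in the values was not tested. Within groups, log2 CPM correlated across genes with r = 0.976 (untreated) and 0.968 (caffeine), and the SD of the log2 difference was 0.58 and 0.61 between replicates against 1.41 between the group means. The **a**-specific genes *MFA1*, *MFA2* and *STE2* had 1640 or more counts in each library. The others were lower, with *BAR1* at 783 to 2867, *AGA2* at 581 to 2374, *ASG7* at 383 to 474 and *STE6* at 207 to 571. Of the alpha-specific genes, *STE3*, the **a**-factor receptor, had 6 to 17 and *MF(ALPHA)1* 8 to 18, whereas *SAG1* had 160 to 262 and *MF(ALPHA)2* 137 to 186. *LEU2*, *URA3* and *MET17* had 0 counts in all 4 libraries, whereas *LYS2*, described as deleted, had 312 to 534. *HIS3*, also named among the strain's alleles, had 812 to 1974 counts. Counts of *TAR1*, a gene antisense to the 25S ribosomal RNA, were 87.0% to 88.2% of those of *RDN25-1*, and reads of overlapping genes on opposite strands cannot be told apart.

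Nearly as many genes rose as fell. With caffeine, 1501 of 6759 genes (22.2%) were higher and 1593 (23.6%) were lower, and in 5068 genes (75%) the untreated and caffeine libraries did not overlap, which included every called gene. These shares of 22.2% higher and 23.6% lower are the background for the list counts below. The median log2 fold change of all genes was -0.0032. When libraries were scaled by their total counts alone, this median moved to 0.37, 2181 genes were higher and 1086 lower, and the share of higher genes among the calls went from 48.5% to 66.8%, so medians close to 0 below have no firm sign. Leaving out single libraries lowered the counts, and 996 genes were lower without untreated replicate 1 and 986 without caffeine replicate 2. Where a list below has fewer calls without a library, this cannot be told apart from the general loss of calls over all genes. The rises were larger than the falls at the extreme: 476 genes rose and 496 fell by over 4-fold, whereas 76 rose and 5 fell by over 16-fold.

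**Figure D1:**
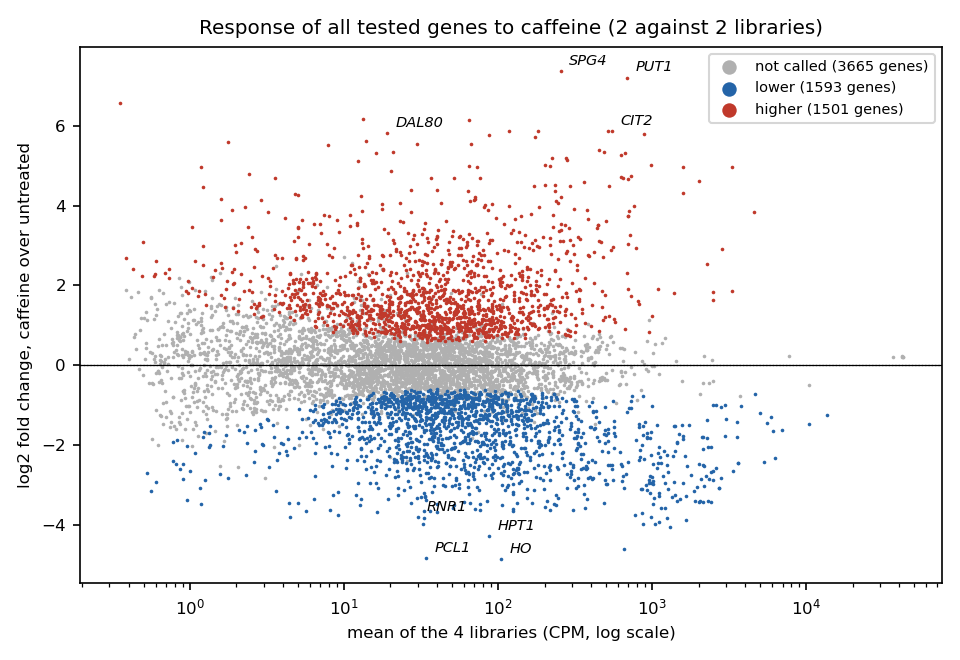
Log2 fold change with caffeine (y axis) against the mean CPM of the 4 libraries (x axis, log scale) for the 6759 genes tested, one point per gene, coloured by call. The 1501 higher genes reach a log2 fold change of 7.36 (*SPG4*), and the lowest value of the 1593 lower genes is -4.85 (*HO*).

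Outside the ribosomal protein and drug transporter genes, *SPG4*, needed for survival in stationary phase at high temperature, and *PUT1*, the proline oxidase of the mitochondrion, rose most. *SPG4* had 2.10 and 4.03 CPM in untreated cells and 429 and 586 CPM with caffeine (log2 fold change 7.36, standard error 0.46, adjusted p = 0.000867). *PUT1* had 9.71 and 8.81 CPM in untreated cells and 1027 and 1709 CPM with caffeine (log2 fold change 7.21, standard error 0.40). In both genes the treated values were far above the untreated ones, and the groups did not overlap. The next largest rises were those of *PHM7*, *YMR085W*, *HSP30*, *YPR145C-A*, *CIT2*, *DAL80* and *BTN2*, with log2 fold changes between 5.80 and 6.14, and of *YBR056C-B* (6.16), which is not in RefSeq and lies beside *YBR056W-A* (5.61) in the tables. *HO*, the endonuclease of mating-type switching, fell most. It had 210 and 196 CPM in untreated cells and 5.80 and 8.24 CPM with caffeine (log2 fold change -4.85, standard error 0.29, adjusted p = 0.000867). *PCL1*, a G1 cyclin of the Pho85 kinase, followed with -4.84, and *HPT1*, which salvages hypoxanthine and guanine, with -4.27. The other large falls were *snR77*, *YPL080C*, *RNR1*, *snR67*, *MAK16*, *INA1* and *YOR108C-A*, from -3.98 to -3.65. *YOR108C-A* is not in RefSeq and lies beside *LEU9* (-3.63). *snR77* and *snR67* are small nucleolar RNAs, and *snR67* was uneven, with 12.3 and 48.7 CPM in untreated cells (standard error 0.72).

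**Figure D2:**
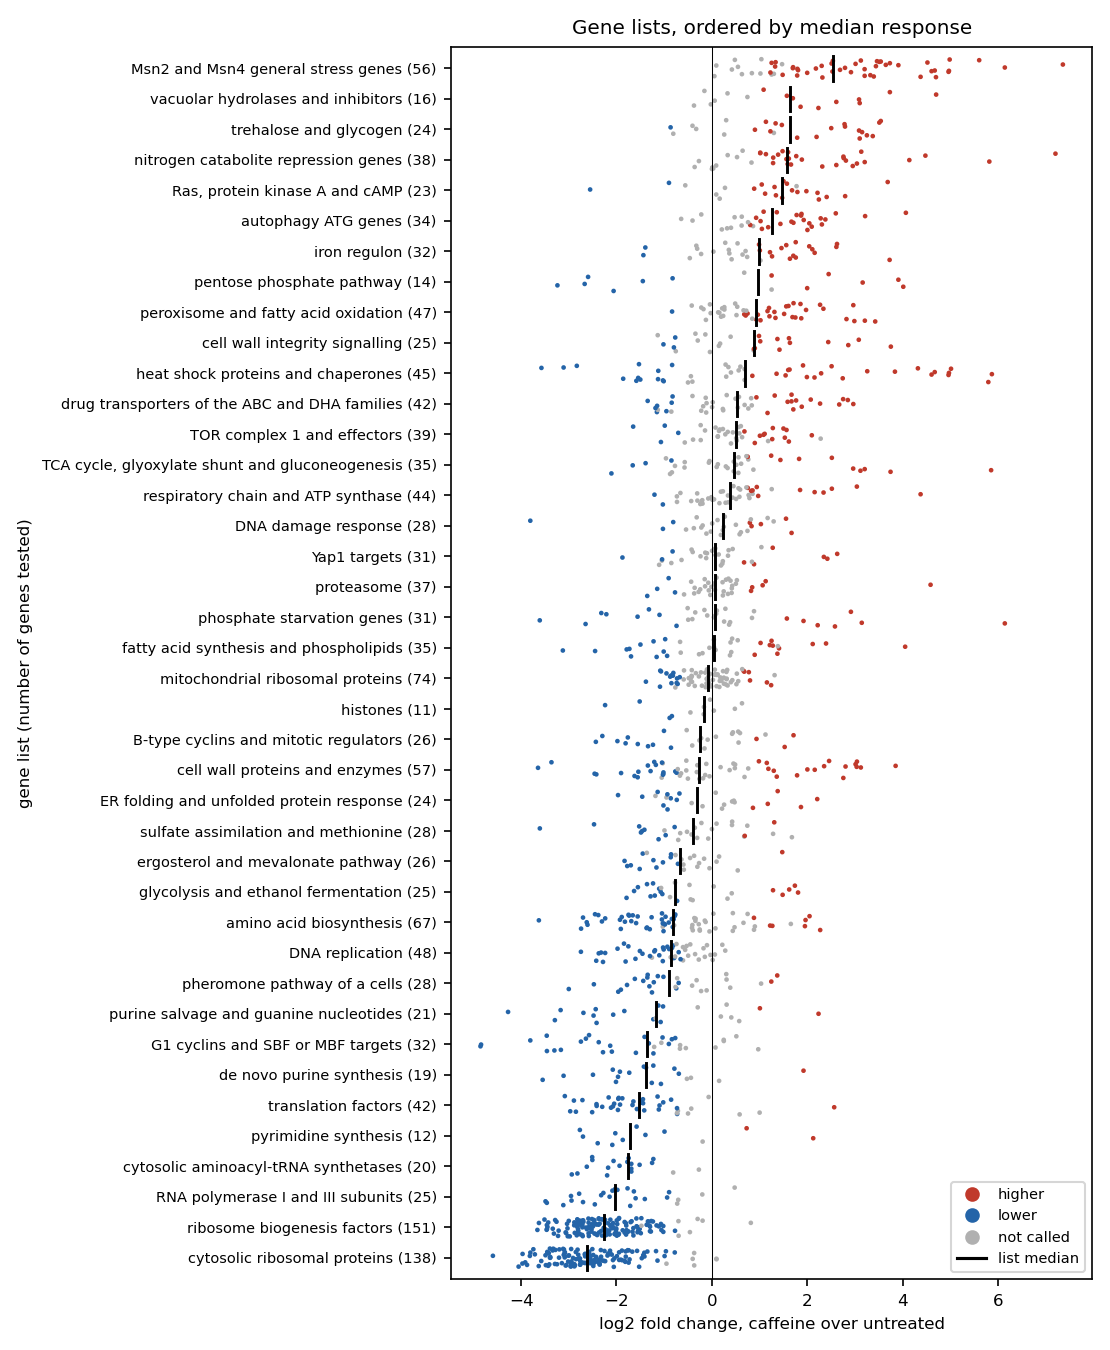
Log2 fold change with caffeine (x axis) of every tested member of the 40 gene lists (y axis, with the number of genes tested), coloured by call; the black bar is the list median. The medians run from -2.62 for cytosolic ribosomal proteins to 2.53 for general stress genes of Msn2 and Msn4, and the drug transporters and ribosomal proteins are shown for scale.

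The machinery that makes ribosomes fell almost as a whole. Of 151 ribosome biogenesis factors, which process ribosomal RNA and assemble the subunits in the nucleolus, 144 fell and 0 rose, with a median log2 fold change of -2.26. These shares were 95.4% and 0%, against 23.6% and 22.2% of all genes. In all 151 the untreated and caffeine libraries did not overlap, against 75% of all genes. *RRP5*, a factor of early processing for both subunits, had 460 and 340 CPM in untreated cells and 45.3 and 19.4 CPM with caffeine. Every treated value was more than 7-fold below every untreated one, and the log2 fold change of -3.63 had a standard error of 0.48 (adjusted p = 0.00236). *MAK16*, needed for the large subunit, went from 68.7 and 54.4 CPM to 6.23 and 3.50 CPM (-3.66). The factors together took 3.65% and 2.95% of counts outside ribosomal RNA in untreated cells and 1.24% and 1.01% with caffeine. For cytosolic ribosomal proteins the shares were 28.9% and 32.5% against 8.74% and 8.01%. Of 25 subunits of RNA polymerases I and III, which transcribe ribosomal and transfer RNA, 21 fell and 0 rose (median -2.03). *RPA190*, the largest subunit of polymerase I, had 124 and 116 CPM untreated and 15.1 and 6.62 CPM with caffeine (-3.46, standard error 0.42), and *RPA43* of the same enzyme fell by 3.49 on the log2 scale.

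The promoters of these genes share short motifs, and 2 of the promoters that hold most are printed here because their genes are named above. The windows are the 250 bases before the start codon in the RefSeq genome R64 (sacCer3), read 5′ to 3′ towards the gene. Capitals mark the PAC motif GATGAG and the RRPE motif AAAATTTT on either strand. Adjoining PAC copies share a base.
RRP5: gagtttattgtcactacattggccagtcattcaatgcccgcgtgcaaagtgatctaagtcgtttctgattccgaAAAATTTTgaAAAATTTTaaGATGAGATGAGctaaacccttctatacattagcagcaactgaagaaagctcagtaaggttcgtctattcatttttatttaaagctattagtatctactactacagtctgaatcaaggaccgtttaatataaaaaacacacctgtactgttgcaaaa
RPA190: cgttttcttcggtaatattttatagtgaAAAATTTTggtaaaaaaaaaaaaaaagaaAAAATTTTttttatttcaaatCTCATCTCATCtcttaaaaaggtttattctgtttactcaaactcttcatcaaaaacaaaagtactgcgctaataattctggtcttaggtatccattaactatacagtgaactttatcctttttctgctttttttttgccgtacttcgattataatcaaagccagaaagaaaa
The window of *RRP5* is chrXIII:731124-731373 on the minus strand, with both RRPE copies followed by both PAC copies between 176 and 146 bases before the start codon. That of *RPA190* is chrXV:960737-960986 on the plus strand, where PAC reads on the opposite strand. PAC was found in 87.4% of promoters of ribosome biogenesis factors and in 17.0% of all 5872 promoters searched, and RRPE in 78.2% against 8.72%. Both motifs stood together in 68.9% of the ribosome biogenesis promoters, in 13.3% of promoters of lower genes and in 0.651% of promoters of higher genes. Genes with both had a median log2 fold change of -1.79, and genes without the pair had 0.039. However, 104 of the 245 genes with both are ribosome biogenesis factors. Within that list the median was -2.31 with the pair and -2.14 without it.

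Translation factors and tRNA charging fell with ribosome production. Among 42 translation factors, 34 fell and 1 rose (81% and 2.38%, against 23.6% and 22.2% of all genes). Their median was -1.53. *YEF3*, the fungal elongation factor 3, had 5088 and 4561 CPM in untreated cells and 916 and 222 CPM with caffeine (log2 fold change -3.08, standard error 0.66). The treated values were both far below the untreated ones, although they differed from each other by more than 4-fold. Its paralog *HEF3*, which is little used in growing cells, was the single riser, from 10.1 and 9.74 CPM to 63.6 and 53.6 CPM (2.57, standard error 0.22). *EFT2*, for elongation factor 2, fell by 2.97 on the log2 scale, but its reads may be split with those of its near-identical copy *EFT1*. Of 20 cytosolic aminoacyl-tRNA synthetases, 18 fell and 0 rose (median -1.76), led by *CDC60* for leucine (-2.94) and *DED81* for asparagine (-2.82). Of 74 proteins of the mitochondrial ribosome 6 rose and 14 fell, and these shares of 8.11% and 18.9% were below those of all genes (22.2% and 23.6%). Their median was -0.070. With scaling by total counts the median of all 6759 genes was 0.37, with 2181 higher and 1086 lower. The mitochondrial list then had a median of 0.31, with 15 genes higher and 3 lower. Their largest rises with a mean of at least 10 CPM were *MRP20* (1.24) and *MRPL16* (1.16), and *MRPL20* fell by 1.38 on the log2 scale. These mitochondrial counts were smaller without any one library, as were the counts over all genes. The median of the list was -0.11 without untreated replicate 1 and 0.11 without untreated replicate 2. It was -0.075 without caffeine replicate 1 and -0.093 without caffeine replicate 2. The calls of *YEF3* (adjusted p = 0.0583 without untreated replicate 1 and 0.0521 without untreated replicate 2) and *MRP20* (0.0507 without caffeine replicate 1 and 0.0617 without caffeine replicate 2) were lost in the same way.

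**Figure D3:**
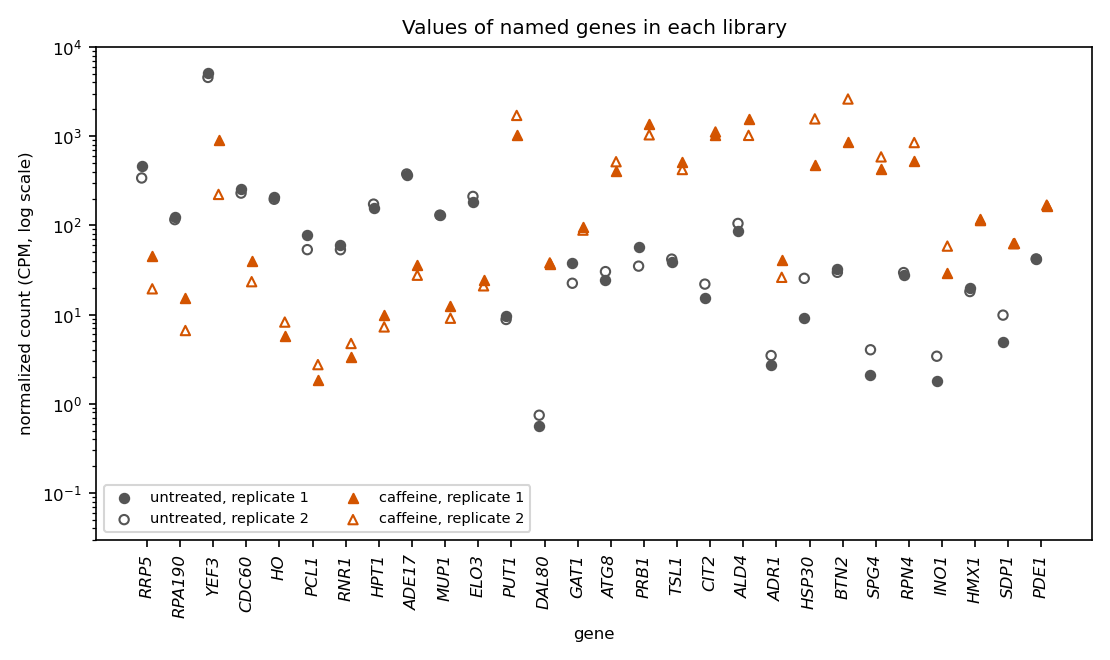
Normalized counts (CPM, log scale, y axis) of 28 named genes (x axis) in each of the 2 untreated (circles) and 2 caffeine libraries (triangles), filled for replicate 1 and open for replicate 2. In every gene shown both caffeine values lie on one side of both untreated values, as for *DAL80* with 0.559 and 0.744 against 36.8 and 38.0 CPM.

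Genes for scavenging poor nitrogen sources rose. Nitrogen catabolite repression keeps these genes off while ammonium or glutamine is plentiful, through the GATA factors Gln3 and Gat1 and the repressors Dal80 and Gzf3. Of 38 such genes 27 rose and 0 fell (71% and 0%, against 22.2% and 23.6% of all genes). Their median log2 fold change was 1.58. The list took 0.228% and 0.227% of counts outside ribosomal RNA in untreated cells and 1.03% and 0.948% with caffeine. *DAL80* had 0.559 and 0.744 CPM in untreated cells and 36.8 and 38.0 CPM with caffeine (5.82, standard error 0.30, adjusted p = 0.000867). The replicates of *DAL80* were close in both groups, and the groups were far apart. *PUT1*, given above, is the most risen member and starts proline breakdown. Of the activators, *GAT1* rose from 37.6 and 22.4 CPM to 95.3 and 88.5 CPM (1.62, standard error 0.29, adjusted p = 0.00668), while *GLN3*, at 4.05 and 2.29 against 7.79 and 6.57 CPM, did not pass the test (1.18, adjusted p = 0.0536). *NPR1*, a kinase that stabilizes amino acid permeases when TORC1 is inactive, rose by 2.10 on the log2 scale. The hexamer GATAAG was found in 47.4% of the promoters of this list and in 12.6% of all promoters, and within the list the median log2 fold change was 1.29 with it and 1.63 without it. The window of *GAT1* is shown because it holds 4 copies (capitals), 3 of them in a run that shares bases, and lies at chrVI:95716-95965 on the plus strand.
GAT1: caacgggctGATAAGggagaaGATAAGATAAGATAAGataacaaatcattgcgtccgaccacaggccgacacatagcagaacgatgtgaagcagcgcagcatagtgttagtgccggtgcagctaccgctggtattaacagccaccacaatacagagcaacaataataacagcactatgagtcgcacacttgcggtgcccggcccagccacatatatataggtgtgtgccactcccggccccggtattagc

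Autophagy and vacuolar breakdown rose as well. Of 34 *ATG* genes 23 rose and 0 fell (67.65% and 0%, against 22.2% and 23.6% of all genes). Their median was 1.27. *ATG8*, which encodes the ubiquitin-like protein that coats the growing autophagosome, had 24.6 and 30.3 CPM in untreated cells and 405 and 517 CPM with caffeine (log2 fold change 4.07, standard error 0.30, adjusted p = 0.000867). Its 4 values fell into groups more than 10-fold apart. *ATG39*, a receptor for autophagy of the nuclear envelope, rose by 3.21. Among 16 vacuolar hydrolases and their inhibitors, 10 rose and 0 fell (median 1.64). *PRB1*, the vacuolar proteinase B, had 57.8 and 34.9 CPM in untreated cells and 1379 and 1036 CPM with caffeine (4.70), and *TFS1*, an inhibitor of carboxypeptidase Y, rose by 3.73. The promoter of *ATG8* (chrII:80732-80981, minus strand) is shown because it holds both the GATAAG hexamer and the stress motif CCCCT, called STRE, which here reads AGGGG on the opposite strand.
ATG8: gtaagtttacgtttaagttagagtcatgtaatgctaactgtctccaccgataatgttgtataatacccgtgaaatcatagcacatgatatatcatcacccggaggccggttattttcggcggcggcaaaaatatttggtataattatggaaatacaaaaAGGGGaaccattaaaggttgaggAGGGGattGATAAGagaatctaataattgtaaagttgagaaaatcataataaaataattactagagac

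Amino acid synthesis fell more often than it rose. Of 67 biosynthetic genes 36 fell and 7 rose (53.73% and 10.45%, against 23.6% and 22.2% of all genes). Their median was -0.82. *LEU9* of leucine synthesis had 146 and 138 CPM in untreated cells and 13.4 and 9.48 CPM with caffeine (-3.63, standard error 0.27), and *ARO2*, chorismate synthase, fell by 2.74 on the log2 scale. *ARG4* and *SER3* moved the other way, by 2.27 and 2.05, the latter in a locus that overlaps a noncoding RNA gene. *GCN4*, the activator of this program, had 861 and 781 CPM in untreated cells and 388 and 236 CPM with caffeine (-1.4, standard error 0.31, adjusted p = 0.0132). Its motif TGACTC was in 53.7% of promoters on the list, and in 7.01% of promoters of higher genes and 6.84% of promoters of lower genes against 6.32% of all. Within the list the median log2 fold change was -1.02 with the motif and -0.42 without it. In sulfate assimilation and methionine metabolism 9 of 28 genes fell and 2 rose (32.1% and 7.14%, against 23.6% and 22.2% of all genes). *MUP1*, the high-affinity methionine permease, went from 131 and 130 CPM to 12.4 and 9.10 CPM (-3.61), while *MET16*, for reduction of activated sulfate, rose by 0.69. Without untreated replicate 1 and without caffeine replicate 2, 17 and 15 of the amino acid genes fell, and 5 of the sulfur genes fell without untreated replicate 1, untreated replicate 2 or caffeine replicate 1. *GCN4* lost its call without untreated replicate 1 (adjusted p = 0.0598), and *MET16* without any one library (0.0719 to 0.124).

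Components of the signalling that senses nutrients changed in part. Of 39 genes for TORC1 and its effectors 12 rose and 4 fell (30.8% and 10.3%, against 22.2% and 23.6% of all genes). Their median was 0.51. Of the kinase genes, *TOR1* (0.61, adjusted p = 0.138) and the effector *SCH9* (0.15, adjusted p = 0.783) did not pass the test, and *TOR2* fell by 0.99. Of the repressors of ribosome biogenesis, *STB3* rose by 1.5, *TOD6* fell by 1.65, and *DOT6* was at 306 and 123 against 197 and 92.3 CPM, so that its groups overlapped (adjusted p = 0.427). Of the activators of ribosomal genes, *FHL1* fell by 1.07 on the log2 scale, and *SFP1* rose by 1.57 from a low level. The Ras and protein kinase A branch, which transmits glucose through cyclic AMP, had 16 of 23 genes higher and 2 lower (median 1.47). *PDE1* and *PDE2*, the cyclic AMP phosphodiesterases, both rose, *PDE1* from 42.0 and 42.1 CPM to 164 and 169 CPM (1.98, standard error 0.21) and *PDE2* from 17.4 and 22.3 CPM to 73.5 and 53.8 CPM (1.68). *GPA2*, the G protein subunit that couples to the glucose receptor, rose by 2.80, and *YAK1*, a kinase that opposes protein kinase A, by 3.69, with *YJL142C* overlapping its locus. *RAS1* fell by 2.55 on the log2 scale. *RIM15*, a kinase held back by both branches, was at 26.5 and 20.9 against 39.0 and 25.3 CPM and was not called. With single libraries left out, 7 of the TORC1 genes rose without untreated replicate 2 or caffeine replicate 1, and 1 fell without untreated replicate 1 or caffeine replicate 2. *TOR2* lost its call without untreated replicate 1 (adjusted p = 0.19), caffeine replicate 1 (0.0745) or caffeine replicate 2 (0.178), *STB3* without caffeine replicate 1 (0.057), and *FHL1* without untreated replicate 1 (0.054) or caffeine replicate 2 (0.0568). *TOR1* was called in the fit of all 13 libraries (0.69, adjusted p = 0.0185).

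The general stress response had the highest median of the 40 lists. The lists were chosen with earlier results of these data known, and this one holds *SPG4* and *PHM7*, so its rank is a description. Of 56 genes attributed to Msn2 and Msn4, 44 rose and 0 fell (78.6% and 0%, against 22.2% and 23.6% of all genes). Their median log2 fold change was 2.53. In 52 of them the groups did not overlap, against 75% of all genes. The 56 genes took 0.428% and 0.772% of counts outside ribosomal RNA in untreated cells and 4.85% and 7.77% with caffeine. *MSN2* rose from 3.35 CPM in both untreated libraries to 15.8 and 15.3 CPM (2.22, standard error 0.28), and *MSN4* from 2.86 and 5.58 to 15.1 and 14.3 CPM (1.79). *XBP1*, a repressor induced by stress, rose by 3.12. The STRE motif was in 60.7% of promoters on this list, in 32.0% of promoters of higher genes, in 10.3% of those of lower genes and in 18.9% of all. Genes with the motif had a median log2 fold change of 0.57, against -0.13 for genes without it. Within the list of general stress genes the order was the opposite, with 2.42 for genes with the motif and 2.97 for genes without it.

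Genes for reserve carbohydrates, many of them known targets of the same factors, rose as well. Of 24 genes for trehalose and glycogen, the storage sugars of yeast, 17 rose and 1 fell (median 1.63). These shares were 70.8% and 4.17%, against 22.2% and 23.6% of all genes. *TSL1*, a subunit of trehalose synthase, had 39.0 and 41.9 CPM in untreated cells and 519 and 423 CPM with caffeine (3.54, standard error 0.27, adjusted p = 0.000867). *TPS2* of the same complex followed it closely, from 40.1 and 46.7 CPM to 541 and 450 CPM (3.51). In both genes the values within a group lay close together and the groups more than 9-fold apart. The promoter of *TSL1* (chrXIII:70374-70623, plus strand) is shown for its 3 STRE copies, which all read AGGGG and lie 231 to 161 bases before the start codon.
TSL1: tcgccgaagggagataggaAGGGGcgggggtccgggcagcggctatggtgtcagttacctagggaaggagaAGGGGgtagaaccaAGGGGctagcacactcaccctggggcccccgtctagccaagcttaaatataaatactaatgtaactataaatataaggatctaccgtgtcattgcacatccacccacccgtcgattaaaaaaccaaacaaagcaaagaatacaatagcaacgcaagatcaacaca

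Chaperones went in both directions. Of 45 heat shock proteins and chaperones 21 rose and 13 fell (46.7% and 28.9%, against 22.2% and 23.6% of all genes). Their median was 0.69. *HSP30*, a plasma membrane protein induced by heat, had 9.22 and 25.5 CPM in untreated cells and 475 and 1563 CPM with caffeine (5.87, standard error 0.83), and *BTN2*, which sorts misfolded proteins, went from 32.6 and 29.8 CPM to 861 and 2611 CPM (5.80, standard error 0.62). The treated replicates differed by about 3-fold in both genes, and their lower value still lay far above the untreated ones. *SSB1* and *SSB2*, Hsp70 chaperones that bind nascent chains at the ribosome, fell (-3.57 and -3.11); their sequences are nearly identical, so their reads may be split. *HSF1*, the heat shock factor, rose by 0.85. *RPN4*, the activator of proteasome genes, rose from 27.8 and 29.6 CPM to 531 and 848 CPM (4.59, standard error 0.35, adjusted p = 0.000867). The proteasome list, with *RPN4* counted in it, had 5 of 37 genes higher and 4 lower, near or below the background shares. Its median was 0.066. Scaled by total counts, 2181 of all 6759 genes were higher and 1086 lower, and of the proteasome list 12 were higher and 2 lower. *RPT2* rose by 1.13, while *BLM10* and *PUP3* fell (-1.35 and -1.15). For protein folding in the endoplasmic reticulum, 5 of 24 genes rose and 9 fell (20.8% and 37.5%, against 22.2% and 23.6% of all genes). With scaling by total counts 8 of these were higher and 4 lower. The oxidative folding enzymes *MPD1* (2.21) and *ERO1* (1.87) rose, and *SEC61* and *SBH1* of the translocon fell (-1.97 and -1.46). *HAC1*, the factor of the unfolded protein response, was not called (0.26, adjusted p = 0.542). Without caffeine replicate 2, 7 chaperone genes and 1 gene of the endoplasmic reticulum list fell; in the latter list 3 fell without untreated replicate 1 and 4 without caffeine replicate 1. The proteasome list then had 1, 2 and 2 risers without untreated replicate 1, untreated replicate 2 and caffeine replicate 2. *HSF1* lost its call without untreated replicate 2 (adjusted p = 0.121), caffeine replicate 1 (0.145) or caffeine replicate 2 (0.103), *RPT2* without untreated replicate 1 (0.0503), and *SEC61* without untreated replicate 1 (0.0665) or caffeine replicate 2 (0.0844).

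Genes for peroxisomes and fatty acid oxidation rose: 27 of 47 (57.4%) were higher and 1 was lower (median 0.93), with *CAT2*, carnitine acetyltransferase, at 2.99 and *PEX25* at -0.83. *ADR1* and *CAT8*, activators for growth on non-fermentable carbon, rose by 3.43 (standard error 0.33) and 2.55 (standard error 0.28), *ADR1* from 2.72 and 3.47 CPM to 40.7 and 26.2 CPM. Of 35 genes for the TCA cycle, the glyoxylate shunt and gluconeogenesis 10 rose (28.6%) and 4 fell (median 0.46). *CIT2*, the peroxisomal citrate synthase, had 15.2 and 22 CPM in untreated cells and 1038 and 1115 CPM with caffeine (5.86, standard error 0.33). *ALD4*, the mitochondrial aldehyde dehydrogenase, went from 87.1 and 105 CPM to 1562 and 1021 CPM (3.75). In both genes the treated values were 1021 CPM or more, and the groups did not overlap. *IDP1*, a mitochondrial isocitrate dehydrogenase, fell by 1.66 on the log2 scale. Of 44 genes for the respiratory chain and ATP synthase 11 rose (25%) and 2 fell (median 0.39, or 0.18 without untreated replicate 1). In both lists the share of higher genes was close to the 22.2% of all genes, while that of lower genes (11.4% and 4.5%) was below 23.6%. Scaled by total counts, 18 TCA list genes were higher and 3 lower, and 20 respiratory genes were higher and 1 lower. Of all 6759 genes 2181 were then higher and 1086 lower. *HAP4*, the activator of the respiratory group, was at 21.4 and 29.0 against 18.5 and 24.4 CPM (adjusted p = 0.503). In glycolysis and fermentation 11 of 25 genes fell and 5 rose (44% and 20%, against 23.6% and 22.2% of all genes). Their median was -0.77. *PDC1*, pyruvate decarboxylase, had 14341 and 6741 CPM in untreated cells and 4044 and 2763 CPM with caffeine (-1.63, standard error 0.41, adjusted p = 0.0215). It was not called without untreated replicate 1 (adjusted p = 0.101) or caffeine replicate 2 (0.0808), and *PEX25* was not called without any one library (0.0607 to 0.0704). In glycolysis 5, 6 and 6 genes fell without untreated replicate 1, untreated replicate 2 and caffeine replicate 2, and 7 respiratory genes rose without untreated replicate 1 or caffeine replicate 1.

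Many reactions are served by a pair of genes, and in 9 of 13 such pairs one gene rose while the other fell. These pairs were chosen after their values were seen, so the count is a description and no test was made over them. Hexokinase *HXK1* rose by 1.81 and *HXK2* fell by 1.07. Pyruvate kinase *PYK2* went from 17.9 and 16.7 CPM to 73.4 and 42.4 CPM (1.74), and *CDC19*, its main form, from 4306 and 2166 CPM to 1145 and 727 CPM (-1.79). In the pentose phosphate pathway 6 of 14 genes rose and 6 fell. There *SOL4* (3.91), *TKL2* (1.25) and *NQM1* rose, the last from 5.17 and 14.0 CPM to 84.2 and 227 CPM, and *SOL3* (-1.45), *TKL1* (-2.60) and *TAL1* (-0.82) fell. *RKI1* and *RPE1*, which are single genes of that pathway, fell (-3.24 and -2.67). Of the genes for cytochrome c, *CYC7* rose by 4.38 and *CYC1* fell by 1.20 on the log2 scale. Of those for phosphoglucomutase, *PGM2* rose (2.79) and *PGM1* fell (-0.87). *HEF3* and *YEF3*, and *URA10* (2.13) and *URA5* (-2.02), make up the remaining pairs of this kind. In 3 pairs one gene did not pass the test: *GND2* (1.25, adjusted p = 0.0546), *RNR3* (0.82, adjusted p = 0.163) and *TDH1* (-0.47, adjusted p = 0.389), while *GND1*, *RNR1* and *TDH3* fell. For citrate synthase both genes rose, *CIT2* and *CIT1* (3.12). The smaller falls and rises were the least stable: *TAL1* (adjusted p 0.0651 to 0.0852) and *PGM1* (0.0532 to 0.0867) lost their calls without any one library. So did *HXK2* without untreated replicate 2 (0.0695) or caffeine replicate 2 (0.0532), *CDC19* without untreated replicate 1 (0.0705) or caffeine replicate 2 (0.0606), and *TKL2* without untreated replicate 1 (0.119) or caffeine replicate 2 (0.12). *GND2* was called without untreated replicate 2 (2.01, adjusted p = 0.0298).

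**Figure D4:**
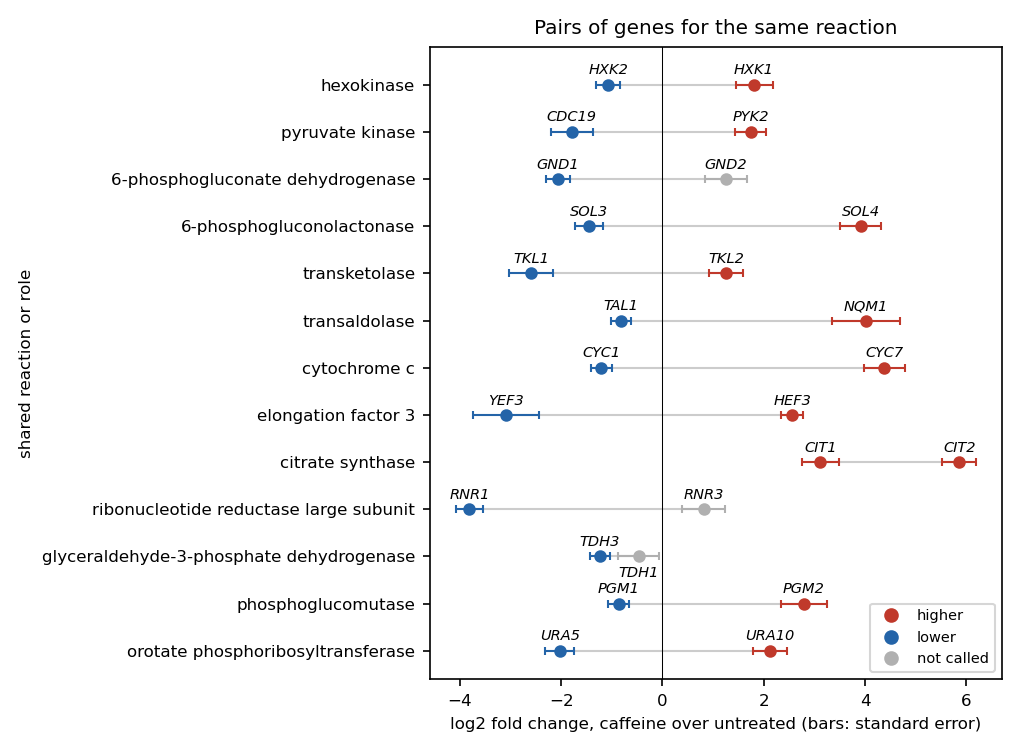
Log2 fold change with caffeine (x axis, bars are standard errors) of both genes in 13 pairs that serve the same reaction or role (y axis), coloured by call. In 9 pairs one gene rose and the other fell, for example *CYC7* at 4.38 and *CYC1* at -1.20, and citrate synthase is the pair with both genes higher.

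Genes of the G1 to S transition fell. Of 32 G1 cyclins and targets of SBF or MBF, the factors that switch on genes at Start, 22 fell and 0 rose (median -1.37). These shares were 68.75% and 0%, against 23.6% and 22.2% of all genes. In bulk RNA, fewer cells in a phase and less RNA of these G1 genes per cell cannot be told apart. *PCL1* had 77.9 and 53.5 CPM in untreated cells and 1.83 and 2.75 CPM with caffeine (-4.84, standard error 0.34, adjusted p = 0.000867). *RNR1*, the large subunit of ribonucleotide reductase, fell from 59.9 and 53.3 CPM to 3.33 and 4.74 CPM (-3.81, standard error 0.27). In both genes the treated values were more than 10-fold below the untreated ones. *SWI4*, the DNA-binding subunit of SBF, fell by 0.77 on the log2 scale (adjusted p = 0.0436). Of 48 DNA replication genes 27 fell and 0 rose (median -0.85), among them *POL30*, the sliding clamp, from 146 and 141 CPM to 13.1 and 29.8 CPM (-2.75), and *CTF18* (-2.42). The MCB motif ACGCGT was in 43.8% of promoters of the replication list, in 18.8% of the G1 list and in 2.93% of all. CACGAAA, the SCB motif, was in 6.25%, 15.6% and 3.88% of them. Of 11 histone genes 4 fell (36.4%, against 23.6% of all genes) and 0 rose, with *HTA2* (-2.24) and *HTB2* (-1.51) lowest. Only 2 fell without untreated replicate 1, untreated replicate 2 or caffeine replicate 1. Histones took 0.254% and 0.291% of counts outside ribosomal RNA untreated and 0.297% and 0.370% with caffeine. B-type cyclins and mitotic regulators were mixed: 10 of 26 fell and 3 rose (38.5% and 11.5%, against 23.6% and 22.2% of all genes). Those that fell included *CLB1* (-2.43) and *HST3* (-2.30), and *ASE1* (1.53) and *DBF2* (0.94) were among those that rose. Scaled by total counts, 9 of the mitotic genes were higher and 7 lower, and of the histone genes 2 were higher and 2 lower. Of all 6759 genes 2181 were then higher and 1086 lower. In the DNA damage list 5 of 28 genes rose and 3 fell, below the background shares in both directions (11 and 1 when scaled by total counts); *DIN7* (1.67) and *RNR4* (1.56) rose, and *RAD17* fell by 1.03. Without untreated replicate 1, 14 replication genes and 4 mitotic genes fell, and 15 replication genes fell without caffeine replicate 2. Of the damage list 2 rose without untreated replicate 1, untreated replicate 2 or caffeine replicate 2. *SWI4* was not called without untreated replicate 1 (adjusted p = 0.209), caffeine replicate 1 (0.12) or caffeine replicate 2 (0.15), *RNR4* without untreated replicate 1 (0.0699) or 2 (0.0807), *DBF2* without either untreated replicate or caffeine replicate 1 (0.0561 to 0.0818), and *RAD17* without these same libraries (0.0532 to 0.0909).

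Mating genes of **a** cells fell too. Of 28 genes 16 fell and 2 rose (57.1% and 7.14%, against 23.6% and 22.2% of all genes). Their median was -0.89. *FAR1*, which arrests the cell cycle in response to pheromone, had 183 and 192 CPM in untreated cells and 25.7 and 21.1 CPM with caffeine (-3.0, standard error 0.23). *MFA2*, an **a**-factor gene, fell from 1471 and 1959 CPM to 394 and 224 CPM (-2.47). Within each gene the treated values were all below the untreated ones. *STE5* and *STE11*, the scaffold and the first kinase of the cascade, rose by 1.37 and 1.25.

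Cell wall signalling genes rose more often than they fell. Of 25 genes for cell wall integrity signalling, the Pkc1 and Slt2 kinase cascade, 12 rose and 3 fell (median 0.88, or 0.52 without untreated replicate 1). These shares were 48% and 12%, against 22.2% and 23.6% of all genes. *SLT2* had 38.1 and 34.7 CPM in untreated cells and 145 and 78.0 CPM with caffeine (1.62, standard error 0.33, adjusted p = 0.011), and *RLM1*, the factor it activates, 11.2 and 7.94 against 33.3 and 26.1 CPM (1.64). The phosphatases that switch Slt2 off went in both directions: *SDP1* (3.08) and *PTP2* (2.86) rose, and *PTP3* (-1.02) and *MSG5* (-0.80) fell. Of 57 wall proteins and enzymes 17 rose (29.8%) and 18 fell (31.6%), against 22.2% and 23.6% of all genes. With scaling by total counts 21 were higher and 11 lower, against 2181 and 1086 of all 6759 genes. *PUN1*, a membrane protein of the eisosome region, went from 74.6 and 108 CPM to 1354 and 1282 CPM (3.85), and *NCW2* rose by 3.12. *MKC7*, a protease anchored at the surface, went from 71.5 and 62.6 CPM to 5.64 and 5.06 CPM (-3.65), and *TOS6* fell by 3.36 on the log2 scale. Of the signalling genes 7 rose without untreated replicate 1 or 2, and 0 fell without untreated replicate 1 or caffeine replicate 2. Of the wall genes 9 fell without untreated replicate 1 or caffeine replicate 2 and 11 without untreated replicate 2. *SLT2* lost its call without untreated replicate 1 (adjusted p = 0.0549) or 2 (0.0604), and *PTP3* (0.0631 to 0.216) and *MSG5* (0.0736 to 0.195) without either untreated replicate or caffeine replicate 2.

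Nucleotide synthesis fell. Of 19 genes of de novo purine synthesis 15 fell and 1 rose (78.95% and 5.26%, against 23.6% and 22.2% of all genes). Their median was -1.38. *ADE17*, for the last steps to IMP, had 363 and 377 CPM in untreated cells and 35.6 and 27.6 CPM with caffeine (-3.55, standard error 0.27), and *ADE5,7* fell by 3.11. *PHO2*, a homeodomain activator that also serves phosphate genes, was the riser (1.92). Of 21 genes for purine salvage and guanine nucleotides 13 fell and 2 rose (median -1.18). *HPT1* had 158 and 173 CPM untreated and 9.83 and 7.27 CPM with caffeine (-4.27, standard error 0.27, adjusted p = 0.000867), and *APT1*, for adenine, fell by 3.29. *GUD1*, guanine deaminase, and *ISN1*, an IMP nucleotidase, rose (2.24 and 1.01), so these breakdown enzymes went the opposite way to the salvage enzymes *HPT1* and *APT1*. Of 12 pyrimidine genes 9 fell and 2 rose (median -1.72). *URA2*, which starts the pathway, fell from 934 and 633 CPM to 154 and 86.8 CPM (-2.70), and of the CTP synthases *URA7* fell by 2.77 while *URA8* rose by 0.73. *URA8* was not called without any one library (adjusted p 0.092 to 0.195), and *ISN1* was not called without untreated replicate 1 (0.101), caffeine replicate 1 (0.118) or caffeine replicate 2 (0.058).

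Sterol genes fell more often than they rose. In ergosterol synthesis 11 of 26 genes fell and 1 rose (42.3% and 3.85%, against 23.6% and 22.2% of all genes). Their median was -0.68. *ERG3* and *ERG2* fell (-1.83 and -1.77), and *UPC2*, the sterol-sensing activator, rose by 1.48. In fatty acid and phospholipid synthesis 10 of 35 genes rose (28.6%) and 11 fell (31.4%), shares not far above those of all genes (22.2% and 23.6%). *INO1*, inositol phosphate synthase and the classic target of the inositol response, had 1.82 and 3.41 CPM in untreated cells and 29.0 and 58.6 CPM with caffeine (4.05, standard error 0.49). *OPI3*, a phospholipid methyltransferase, rose by 2.39. *ELO3* and *ELO2*, fatty acid elongases, fell (-3.13 and -2.45), *ELO3* from 183 and 211 CPM to 24.2 and 21.0 CPM. Without caffeine replicate 2, 7 ergosterol genes and 5 genes of the fatty acid and phospholipid list fell; in the latter list 7 fell without untreated replicate 2 and 6 rose without caffeine replicate 1.

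Iron genes rose in part. Of 32 genes of the iron regulon 16 rose and 2 fell (50% and 6.25%, against 22.2% and 23.6% of all genes). Their median was 1.00. *HMX1*, heme oxygenase, had 19.9 and 18.1 CPM in untreated cells and 119 and 113 CPM with caffeine (2.61, standard error 0.21, adjusted p = 0.000867), and *FIT2*, a wall mannoprotein for siderophore iron, rose by 2.16. The 2 that fell were *FET3* and *FTR1*, the oxidase and permease of high-affinity iron uptake (-1.44 and -1.4). Of 31 phosphate starvation genes 7 rose and 8 fell, and these shares of 22.6% and 25.8% were near those of all genes. *PHM7* (6.14) and *PHM8*, a phosphatase (3.14), rose, whereas *PHO3*, an acid phosphatase, went from 291 and 168 CPM to 22.3 and 15.2 CPM (-3.61) and *PHO90*, a low-affinity transporter, fell by 2.32. *PHO81*, the inhibitor that starts the phosphate response, was at 81.7 and 68.5 against 82.5 and 72.4 CPM, a difference smaller than the spread within groups (adjusted p = 0.884). *FET3* (0.0604 to 0.0923) and *FTR1* (0.0507 to 0.0718) lost their calls without either untreated replicate or caffeine replicate 2, given as adjusted p, and *PHO90* without untreated replicate 1 (0.055). Of the phosphate genes 4 rose without untreated replicate 1 or caffeine replicate 2, and 4 and 5 fell without these libraries.

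Yap1, the AP-1 factor of the oxidative stress response, was the study's subject, and its targets were compared between caffeine and *YAP1* overexpression. The second experiment had 3 wild-type libraries with empty vector and 3 with *YAP1* overexpressed from a plasmid, with no caffeine named. In these 6 libraries ribosomal RNA rows took 43.8% to 75% of counts, so the experiments differ in plasmid and library make-up, which cannot be told apart from the treatment. The series also holds 3 libraries of a *yap1* deletion with empty vector. They entered the fit of all 13 libraries as a group of their own but are in neither comparison. In this fit (6754 genes), 16 of 31 Yap1 targets were higher with overexpression and 0 lower, against 0.518% and 0.0148% of all genes. With caffeine 6 were higher and 4 lower, against 24.4% and 23.2% of all genes. The response to caffeine was lower than that to overexpression in 15 of 31 targets and higher in 0, against 16.1% and 16.7% of all genes. The list holds genes attributed to Yap1 and was chosen with earlier results of these data known. Rises with overexpression, and smaller responses to caffeine, were thus partly set by the choice of list, and these counts are descriptions. *FRM2* had a log2 fold change of 6.93 (standard error 0.49) with overexpression and -0.96 (standard error 0.63) with caffeine, and the difference of -7.89 had an adjusted p of 1.6e-05. *YKL071W* (6.52 against -0.34) and *OYE3*, an NADPH dehydrogenase (5.17 against 0.16), differed in the same way. *TRX2*, the thioredoxin, was at 1.72 against -0.053. For some targets a difference was not detected: *SRX1*, sulfiredoxin, had 2.72 with caffeine and 2.05 with overexpression (adjusted p of the difference 0.0967), and *GTT2*, a glutathione transferase, 2.44 and 2.82 (adjusted p = 0.651). *GSH2*, glutathione synthetase, fell with caffeine (-1.79) and was at -0.31 with overexpression. In the 4 libraries alone 6 of 31 targets rose and 3 fell, close to or below the background shares, and *YAP1* itself rose by 0.85. The call of *YAP1* was lost without either untreated replicate or caffeine replicate 1 (adjusted p 0.052 to 0.0853).

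**Figure D5:**
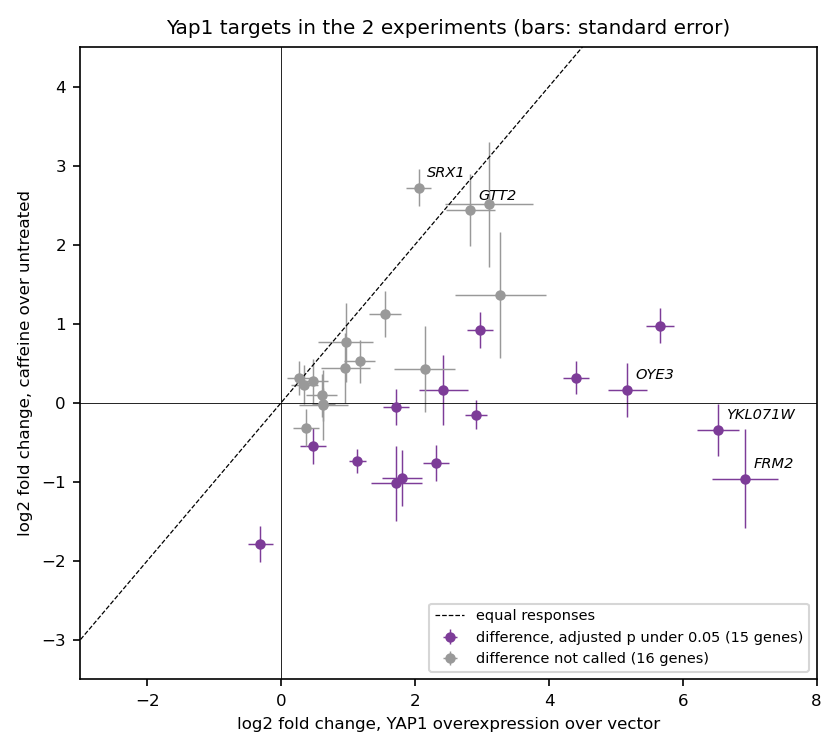
Log2 fold change of 31 Yap1 targets with caffeine (y axis) against that with *YAP1* overexpression (x axis) in the fit of all 13 libraries; bars are standard errors and the dashed line marks equal responses. The 15 targets whose responses differed by the test lie below the line, such as *FRM2* at 6.93 and -0.96, and *SRX1* lies above it without passing the test.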

How the data were processed

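The 4 QuantSeq 3′ libraries of wild-type cells were analysed, with the other 9 libraries of the series for the Yap1 comparison. The deposited values are read counts per gene, which the authors made without normalization; the submitters' processing notes name Bowtie2, bedtools and sacCer3. A row without a name in each of the 4 files was left out, and a mouse table in the series was not used. Of 7125 rows, 6160 were paired with RefSeq R64. Low counts were removed with filterByExpr, libraries were scaled by TMM, and groups were compared with the quasi-likelihood test of edgeR 4.0.16 in R 4.3.3 over all 6759 genes (Benjamini-Hochberg, threshold 0.05), after tests on simulated data. Alternatives used limma 3.58.1, DESeq2 1.42.0, other scalings, filters and a replicate block. Named genes were the 10 largest rises and falls, up to 2 of each per list (called, mean of at least 10 CPM, groups not overlapping) and listed regulators. Isozyme pairs and printed promoters were chosen after their values were seen. A few genes that the rule names are not reported here. The lists and the comparison were chosen with earlier results of these data known. Motifs were searched in 250 bases before each start codon on both strands. Each group had 2 libraries, of 15508616 counts or more.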

Additional observations from a re-analysis of the deposited data

How the results depend on the processing

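Of the 166 genes named, 150 to 166 kept their direction and their side of the threshold under each of 10 other settings of scaling, filter or fit, and 139 to 149 with one library left out. Counts of higher genes ran from 1003 to 1228 and of lower genes from 986 to 1226 with one library left out, in fits with fewer libraries. RLE size factors gave 1519 and 1601, DESeq2 1584 and 1668, and no filter on low counts 1486 and 1555. Scaling by total counts moved 35 of 80 list counts by over 1.5 times. The groups share replicate numbers 1 and 2, but nothing else pairs their samples; deviations of same-numbered libraries correlated at 0.41. A replicate block gave 1903 higher and 1966 lower genes, moved 13 of 80 list counts by over 1.5 times and left 15 Yap1 targets with a difference. With one library left out, 14 to 18 Yap1 targets differed. The genes whose sign changed had not passed the test, and the cause was not tested. With scaling by total counts *HAP4* was at 0.14 and *TRX2* at 0.23, and with TMM without ribosomal rows *PHO81* was at -0.0035. With each library left out in turn, values ran from -0.44 to 0.068 for *HAP4*, from -1.22 to 0.26 for *DOT6*, from -0.27 to 0.75 for *SCH9*, from -0.16 to 0.58 for *HAC1*, from -0.058 to 0.22 for *PHO81*, from -0.88 to 0.28 for *TDH1*, from -0.23 to 0.074 for *TRX2* and from -0.13 to 0.26 for *OYE3*. With 2 libraries a group, differences within the replicate spread cannot be detected.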

Other observations

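The lists cover a part of the response: 319 of the 1501 higher genes and 639 of the 1593 lower genes are in one of the 40 lists. Of the calls, 114 higher and 111 lower genes are not in RefSeq, among 763 such rows tested. Caffeine replicate 2 lay below caffeine replicate 1 in 70.7% of the lower genes and above it in 54.4% of the higher genes.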
